A study of Mus musculus with 12 samples.

Results

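Transcript levels of 9 mouse genes that respond to the strength of antigen receptor signalling in T cells are described here: Cd5, Cd6 and Cd69, which encode surface proteins, the nuclear receptor genes Nr4a1 (its protein is also called Nur77), Nr4a2 and Nr4a3, and the transcription factor genes Egr1, Egr2 and Egr3. They were chosen by name as genes set by tonic signal strength, and all 9 of them were among the 49585 genes of the deposited count table. Sequencing of polyA RNA measured T cells sorted from lymph nodes of male mice aged 6 to 10 weeks. Mice were either C57BL/6 (B6) or CD8Dual, a strain the labels call 8in4, with a normal Cd8 locus and a Cd4 locus that yields CD8 rather than the CD4 protein. Every group had 3 libraries, and each library was made from pooled sorted cells.

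The B6 CD4 and B6 CD8 groups were B6 T cells sorted for CD4 or for CD8. The CD8.1 group was CD8Dual T cells carrying the CD8 encoded by the altered Cd4 locus, which mark the helper lineage in that strain. The CD8.2 group was CD8Dual T cells carrying the CD8 encoded by the Cd8 locus, which mark the cytotoxic lineage. In each of the 4 groups the sort took naive T cells positive for the T cell receptor beta chain (antibody H57), and the study's methods add a gate on low CD44, which the labels do not name, so its use for these libraries could not be checked.

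CD5 and CD6 are related proteins of the T cell surface that restrain antigen receptor signalling, and the amount of CD5 on a naive T cell is set by how strongly its receptor recognises self peptides in the thymus and afterwards. Nr4a and Egr genes are immediate early genes: they are transcribed soon after the receptor is engaged, without the need for new protein, and Nr4a1 and Egr proteins are present at low levels in resting cells that receive tonic signals. CD69 appears on the surface early in activation and retains cells in lymphoid organs by drawing the egress receptor S1PR1 inward.

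Summed counts were 21201337, 22750616 and 22410845 in B6 CD4 replicates 1, 2 and 3, and 24418062, 27637080 and 20386247 in those of B6 CD8. In CD8.1 they were 20195646, 23041779 and 21676556, and in CD8.2 they were 23466467, 18667474 and 37110502. CD8.2 replicate 2 was thus the shallowest and CD8.2 replicate 3 the deepest library. Levels are given as CPM, a library's counts scaled to a common total with edgeR's TMM factors. A gene with 3 counts would have had between 0.0875 CPM, in the deepest library, and 0.167 CPM, a floor that covers counting error only. All 9 genes passed the filter on low counts that left 13118 genes, and the lowest count of any of them was 8, for Nr4a2 in B6 CD4 replicate 1.

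Libraries of a group were not equally alike. Over all tested genes, the root mean square deviation of log2 CPM from the group mean was 0.319 in CD8.1 replicate 1 and between 0.205 and 0.270 in the other 11 libraries. That library had the lowest level of its group in 7 of the 9 genes and the highest in Cd69. B6 CD4 replicate 3 was the highest of its group in 9 of the 9 genes, B6 CD8 replicate 3 in 8 and CD8.1 replicate 3 in 7. In CD8.2 replicate 3, Gm42418 was the most abundant gene, with 3.14% of counts, whereas Eef1a1 led in the other 11 libraries. Calls of the 9 genes that turned on a single library are given with and without it.

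Co-receptor transcripts were checked against the labels. Mean Cd4 levels were 969 ± 53.0 CPM (SD, n = 3) in B6 CD4 and 49.7 ± 2.27 in CD8.1, against 0.244 ± 0.120 in B6 CD8 and 1.47 ± 0.341 in CD8.2. Cd8a stood at 1423 ± 48.8 CPM in B6 CD8 and 1459.8 ± 30.4 in CD8.2, at 192 ± 11.5 in CD8.1 and at 1.17 ± 0.428 in B6 CD4. The helper-lineage factor gene Zbtb7b was at 159 ± 5.11 CPM in B6 CD4 and 154 ± 31.8 in CD8.1, against 0.931 ± 0.249 in B6 CD8 and 1.91 ± 0.267 in CD8.2. These levels set B6 CD4 and CD8.1 apart from B6 CD8 and CD8.2, as their labels do.

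A comparison of CD8.1 with CD8.2 asks how helper-lineage and cytotoxic-lineage cells differ when both carry CD8, and B6 CD4 with B6 CD8 is the same lineage contrast in the unaltered strain. A gene was called when edgeR's quasi-likelihood test gave an adjusted P (Benjamini-Hochberg over all 13118 genes) under 0.05. In CD8.1 against CD8.2, 7 of the 9 genes were called, beside 28.7% of all tested genes. All 7 (Cd5, Cd6, Nr4a1, Nr4a3, Egr1, Egr2 and Egr3) were higher in CD8.1, as were 14.9% of tested genes, and in the same 7 no CD8.1 library overlapped a CD8.2 library, as in 40.7% of tested genes. Scaling by DESeq2's size factors in place of edgeR's TMM shifted the median log2 change of all genes by 0.0076 at most and reversed none of the 9 genes. The median log2 change over the 9 genes was 0.90, against -0.0047 over all tested genes. Between B6 CD4 and B6 CD8, 7 of the 9 were also called, beside 23.1% of tested genes: 6 were higher in B6 CD4, as were 11.4% of tested genes, and Nr4a2 was lower, as were 11.7%. Groups did not overlap in 8 of the 9, against 39.0% of tested genes, and the median log2 change was 0.62 against -0.0011.

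Strains were compared within a lineage, and these comparisons share their samples with the lineage contrasts, so values stand side by side without being set against each other. In CD8.1 against B6 CD4, edgeR called 0 of the 9 genes and 12.8% of tested genes. At an unadjusted P under 0.05 there were 3 (Cd6, Egr2 and Egr3), against 28.7% of tested genes, while DESeq2 called 1 of the 9 and 16.0% of tested genes, and limma-voom 0 and 12.9%. In CD8.2 against B6 CD8, edgeR called Cd6 alone, 1 of 9, beside 7.94% of tested genes, and it was lower in CD8.2, as were 4.66%. At an unadjusted P under 0.05 there were 5, against 23.7% of tested genes, while DESeq2 called 2 and 11.2%, and limma-voom 1 and 8.54%. Groups did not overlap in 2 of the 9 genes in CD8.1 against B6 CD4 and in 4 of the 9 in CD8.2 against B6 CD8. The shares over all tested genes were 25.5% and 36.3%, so lack of overlap between the strains was near those shares. The difference between the lineage contrasts of the strains, called the interaction here, was called by edgeR in 0 of the 9 genes and in 1.87% of tested genes. At an unadjusted P under 0.05 there were 3 (Cd6, Nr4a2 and Egr3), against 13.3% of tested genes. DESeq2 and limma-voom each called 0 of the 9, and 3.13% and 1.73% of tested genes. These p-values measure spread between libraries of pooled cells, which may be technical, and in such bulk samples fewer cells that express a gene and less RNA of it in each cell cannot be told apart.

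**Figure D1:**
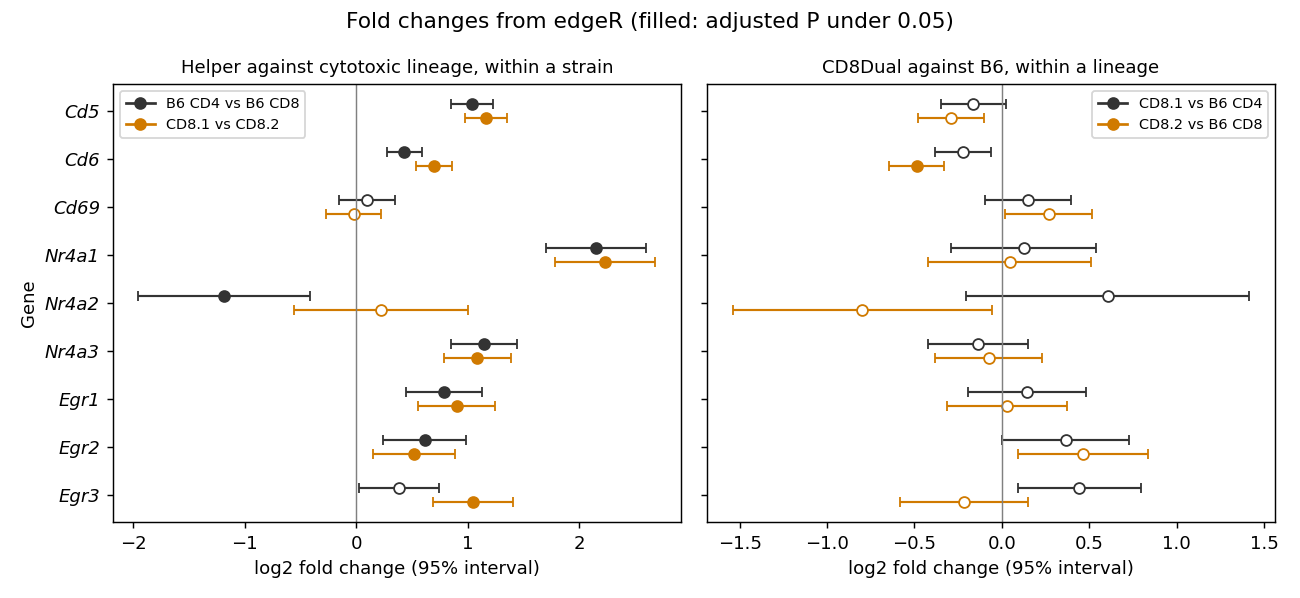
Points are log2 fold changes of each gene from edgeR and bars are 95% intervals, with the lineage contrasts of both strains on the left and the strain contrasts within a lineage on the right; filled points have an adjusted P under 0.05. Lineage changes of Nr4a1, at 2.23 and 2.15, lie farthest to the right, Nr4a2 in B6 lies left of 0 at -1.18, and only Cd6 in CD8.2 against B6 CD8 is filled on the right.

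Cd5 (ENSMUSG00000024669) lies at chr19:10717116-10739002 on the minus strand of GRCm38 in GENCODE M21, the build mm10 that the counts were made on, and encodes an inhibitory surface partner of the T cell receptor. Its level was 478, 483 and 529 CPM in B6 CD4 replicates 1, 2 and 3 and 380.3, 464 and 487 CPM in those of CD8.1, while B6 CD8 had 237, 235 and 252 CPM and CD8.2 had 207, 185 and 199.7 CPM. All 6 libraries of the helper lineage lay above all 6 of the cytotoxic lineage, and CD8.1 replicate 1 was the lowest of the helper-lineage libraries. Means in order were 496 ± 28.2 CPM (SD, n = 3) in B6 CD4, 444 ± 56.1 in CD8.1, 241 ± 9.57 in B6 CD8 and 197 ± 11.3 in CD8.2, and of these neighbours B6 CD4 and CD8.1 overlapped. In edgeR's test the log2 fold change was 1.17 ± 0.089 (SE), or 2.25-fold, in CD8.1 against CD8.2 (adjusted P 9.69e-08) and 1.04 ± 0.089, or 2.06-fold, in B6 CD4 against B6 CD8 (adjusted P 3.03e-07). Their difference was 0.13 with a 95% interval from -0.14 to 0.39 (adjusted P 0.704). Between strains the log2 change was -0.16, interval -0.35 to 0.025, in CD8.1 against B6 CD4 (adjusted P 0.237). With 1 library left out that change ran from -0.23 to -0.062, and its adjusted P from 0.128 to 0.546.

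In CD8.2 against B6 CD8, Cd5 was lower by fold change (log2 -0.29 ± 0.088, adjusted P 0.0571) and the groups did not overlap. That value sat near the threshold. It was called without B6 CD4 replicate 1 (adjusted P 0.0485), B6 CD4 replicate 3 (0.0386), CD8.1 replicate 1 (0.00744) or CD8.1 replicate 3 (0.0427), and its adjusted P reached 0.210 with another library left out. No B6 CD4 or CD8.1 library belongs to this comparison, and without each of those named the log2 change was -0.29 or -0.30. Over the other fits of Cd5 with all libraries the adjusted P ran from 0.00524, with only the groups compared, to 0.0577.

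Cd6 (ENSMUSG00000024670) encodes the relative of CD5 that binds ALCAM, and lies at chr19:10789341-10830058 on the same strand. The gap between the Cd5 and Cd6 gene models is 50338 bases and holds 1 annotated gene, A430093F15Rik. Cd6 was at 385, 383 and 389 CPM in B6 CD4 and 289.9, 349 and 354 CPM in CD8.1, against 292, 282 and 283 CPM in B6 CD8 and 209.7, 199.8 and 202 CPM in CD8.2. Here the strains were apart as well as the lineages: CD8.2 held the 3 lowest values and B6 CD4 the 3 highest, and CD8.1 replicate 1 lay among the B6 CD8 libraries. Means were 386 ± 3.16 CPM (SD, n = 3) in B6 CD4, 331 ± 35.7 in CD8.1, 286 ± 5.42 in B6 CD8 and 204 ± 5.25 in CD8.2, with overlap between CD8.1 and B6 CD8 alone. For Cd6, edgeR gave log2 changes of 0.70 ± 0.075 in CD8.1 against CD8.2 (adjusted P 5.17e-06) and 0.43 ± 0.075 in B6 CD4 against B6 CD8 (adjusted P 0.000449). CD8.2 fell below B6 CD8 by a log2 change of -0.49 ± 0.075 (adjusted P 0.00107).

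For CD8.1 against B6 CD4, the Cd6 change was -0.22 ± 0.075 (adjusted P 0.0633). It was called without B6 CD8 replicate 3 (adjusted P 0.0447) or CD8.1 replicate 3 (0.0453) and by DESeq2, and over the fits with all libraries its adjusted P ran from 0.0270 to 0.198. With 1 library left out the change ran from -0.273 to -0.135, and its adjusted P reached 0.133. The Cd6 interaction was 0.27, interval 0.040 to 0.49 (adjusted P 0.292), and rose to 0.35 (adjusted P 0.00678) without CD8.1 replicate 1, the library with the lowest Cd6 of its group.

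Cd69 (ENSMUSG00000030156, chr6:129267325-129275436, minus strand), the early activation marker, did not follow the lineages. It was at 74.8, 77.1 and 91.4 CPM in B6 CD4, 73.1, 73.6 and 81.1 in B6 CD8, 107, 82.0 and 80.5 in CD8.1 and 82.5, 102 and 89.9 in CD8.2. CD8.1 replicate 1, low in most of the other genes, had the highest Cd69 of all 12 libraries. Group means ran from 91.6 ± 10.0 CPM in CD8.2 through 90.0 ± 15.1 in CD8.1 and 81.1 ± 9.03 in B6 CD4 to 75.9 ± 4.49 in B6 CD8, with every pair of neighbours overlapping. No Cd69 change was called by edgeR in any of the 5 comparisons. The CD8.1 against CD8.2 log2 change was -0.024 with an interval of -0.27 to 0.22 (adjusted P 0.900), and that of B6 CD4 against B6 CD8 was 0.095, interval -0.15 to 0.34 (adjusted P 0.635). CD8.2 libraries lay above B6 CD8 libraries without overlap, by 0.27 ± 0.12 (adjusted P 0.176, and 0.0347 to 0.227 over the other fits with all libraries).

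**Figure D2:**
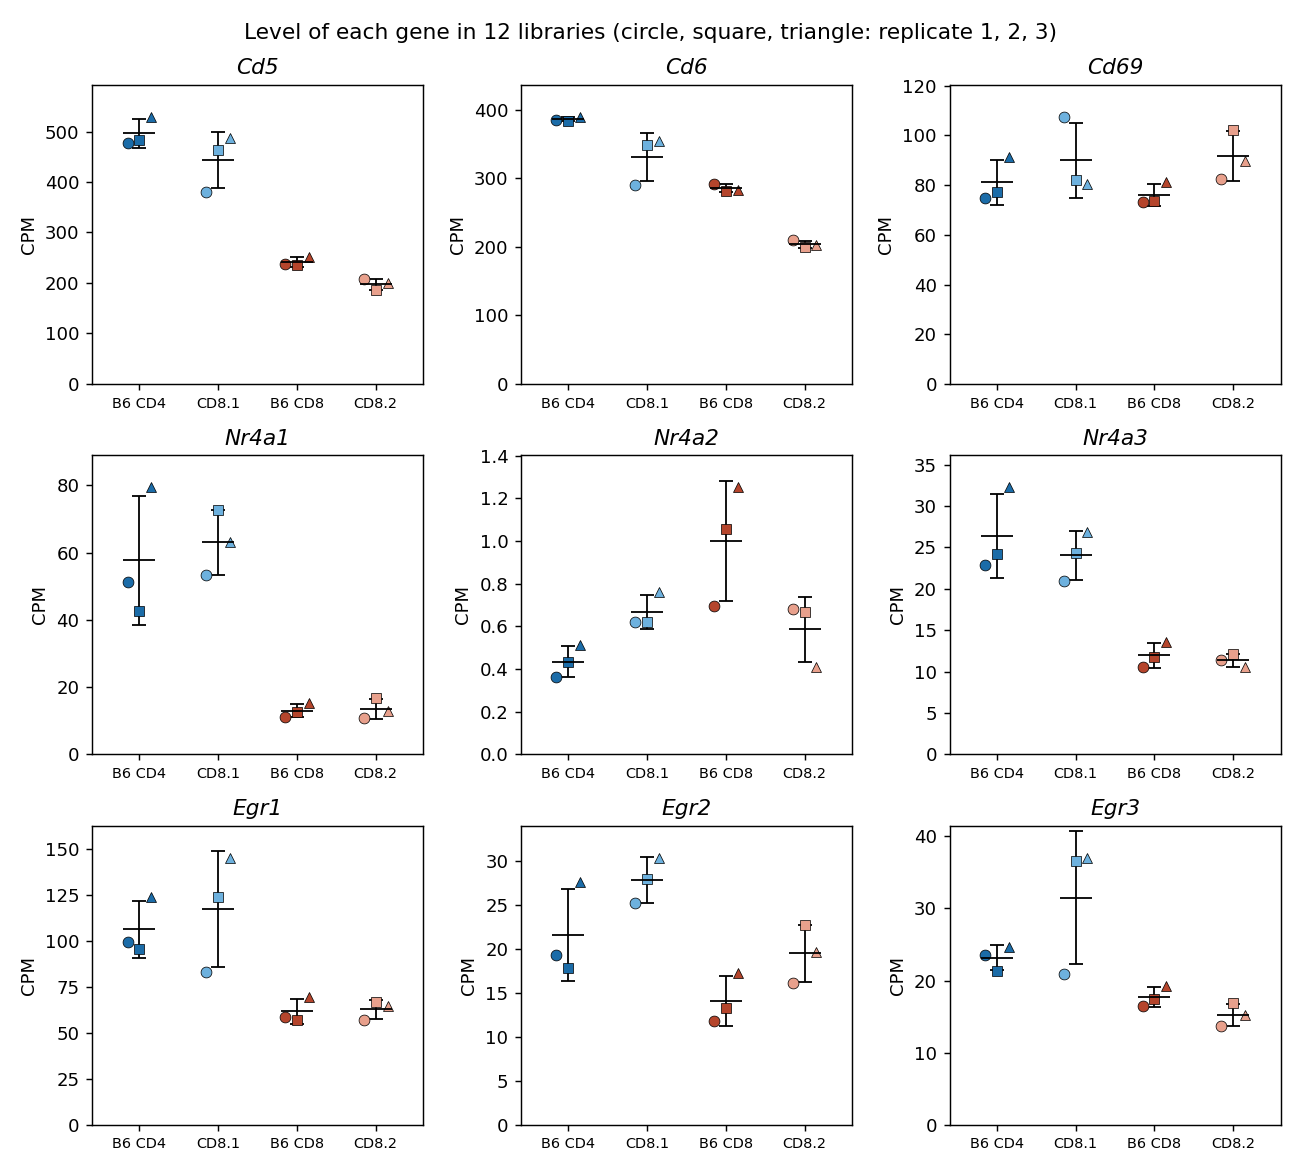
Level in CPM (y axis) of each gene in the 12 libraries by group (x axis); lines are the mean and SD of 3 libraries, and circles, squares and triangles are replicates 1, 2 and 3. Cd5, Nr4a1, Nr4a3, Egr1 and Egr3 show B6 CD4 and CD8.1 libraries above all B6 CD8 and CD8.2 libraries. In Cd69, Nr4a2 and Egr2 each group overlaps the group next to it in order of means, though not every pair of groups overlaps.

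Nr4a1 (ENSMUSG00000023034, chr15:101254269-101274795, plus strand) encodes Nur77, a nuclear receptor without a known natural ligand whose reporter mice are used to read receptor signal strength. It stood at 51.2, 42.8 and 79.4 CPM in B6 CD4 and 53.2, 72.6 and 63.3 CPM in CD8.1, against 11.2, 12.7 and 15.2 CPM in B6 CD8 and 10.8, 16.7 and 13.0 CPM in CD8.2. The lowest helper-lineage library, B6 CD4 replicate 2, was above the highest cytotoxic-lineage library, CD8.2 replicate 2, and within each lineage the strains overlapped. Means were 63.0 ± 9.68 CPM (SD, n = 3) in CD8.1, 57.8 ± 19.2 in B6 CD4, 13.5 ± 2.96 in CD8.2 and 13.0 ± 2.02 in B6 CD8. This was the largest lineage difference among the 9 genes in the fitted values: a log2 change of 2.23 ± 0.21, or 4.70-fold, in CD8.1 against CD8.2 (edgeR, adjusted P 1.35e-06) and 2.15 ± 0.21, or 4.45-fold, in B6 (adjusted P 1.64e-06). The Nr4a1 interaction was 0.080, with an interval of -0.54 to 0.70 (adjusted P 0.933). Strain changes were 0.13, interval -0.29 to 0.54, in CD8.1 against B6 CD4 (adjusted P 0.720) and 0.045, interval -0.42 to 0.51, in CD8.2 against B6 CD8 (adjusted P 0.931).

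Nr4a3 (ENSMUSG00000028341, chr4:48045153-48086447, plus strand), which encodes the related receptor NOR-1, split by lineage in the same way at lower levels. B6 CD4 libraries had 22.9, 24.1 and 32.2 CPM and CD8.1 libraries 20.95, 24.4 and 26.8 CPM, against 10.6, 11.7 and 13.5 CPM in B6 CD8 and 11.4, 12.1 and 10.6 CPM in CD8.2. Every helper-lineage library was above every cytotoxic-lineage library, and the strains overlapped within both lineages. Means were 26.4 ± 5.08 CPM in B6 CD4, 24.1 ± 2.95 in CD8.1, 11.9 ± 1.47 in B6 CD8 and 11.4 ± 0.779 in CD8.2. By edgeR, Nr4a3 changed by a log2 of 1.09 ± 0.14 in CD8.1 against CD8.2 (adjusted P 3.45e-05) and 1.15 ± 0.14 in B6 CD4 against B6 CD8 (adjusted P 1.56e-05), with an interaction of -0.061, interval -0.48 to 0.36 (adjusted P 0.925). The strain changes were -0.14 (adjusted P 0.545) in the helper lineage and -0.075 (adjusted P 0.810) in the cytotoxic lineage.

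Nr4a2 (ENSMUSG00000026826, chr2:57106830-57124003, minus strand), encoding NURR1, was close to the floor and went the other way in B6. It had 8, 10 and 12 counts in B6 CD4 (0.364, 0.431 and 0.510 CPM) and 17, 29 and 26 in B6 CD8 (0.696, 1.05 and 1.25 CPM). CD8.1 had 13, 14 and 16 counts (0.621, 0.619 and 0.760 CPM) and CD8.2 had 16, 12 and 14 (0.681, 0.667 and 0.408 CPM). All 3 B6 CD8 libraries were above all 3 B6 CD4 libraries, whereas CD8.1 and CD8.2 overlapped. From B6 CD8 at 1.00 ± 0.281 CPM through CD8.1 at 0.667 ± 0.0808 and CD8.2 at 0.585 ± 0.154 to B6 CD4 at 0.435 ± 0.0733, each mean's libraries overlapped those of its neighbour. By edgeR, B6 CD4 was lower than B6 CD8 by a log2 change of -1.18 ± 0.36 (adjusted P 0.0271), and the CD8.1 against CD8.2 change was 0.22, interval -0.56 to 1.00 (adjusted P 0.695). The difference between them, an interaction of 1.40 with an interval of 0.30 to 2.50, had an adjusted P of 0.248, so the strains were not shown to differ. CD8.2 lay below B6 CD8 without overlap, by -0.80, interval -1.54 to -0.054 (adjusted P 0.180), and CD8.1 above B6 CD4 without overlap, by 0.61, interval -0.21 to 1.42 (adjusted P 0.313). These were the largest fitted strain changes of the 9 genes, and neither was called. The B6 call of Nr4a2 was lost without B6 CD4 replicate 1 (adjusted P 0.0819), B6 CD4 replicate 2 (0.0715), B6 CD8 replicate 2 (0.0763) or B6 CD8 replicate 3 (0.0943), against 0.0182 at the lowest without another library. It was also lost with no filter on low counts (0.0712, the highest over the other fits with all libraries, of which the lowest was 0.0276).

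Egr1 (ENSMUSG00000038418, chr18:34859823-34864984, plus strand) encodes a zinc finger factor that is among the earliest products of receptor signalling. Its levels were 99.5, 95.6 and 124 CPM in B6 CD4 and 83.2, 124 and 145 CPM in CD8.1, and 58.8, 57.0 and 69.4 CPM in B6 CD8 and 57.3, 67.0 and 64.6 CPM in CD8.2. The lineages did not overlap, and CD8.1 spread most widely, with replicate 1 below all B6 CD4 libraries. Means were 118 ± 31.6 CPM (SD, n = 3) in CD8.1, 106 ± 15.4 in B6 CD4, 63.0 ± 5.08 in CD8.2 and 61.7 ± 6.71 in B6 CD8, and the strains overlapped within each lineage. For Egr1, edgeR gave a log2 change of 0.90 ± 0.16 in CD8.1 against CD8.2 (adjusted P 0.000624) and 0.79 ± 0.16 in B6 CD4 against B6 CD8 (adjusted P 0.00182). The interaction was 0.12, interval -0.37 to 0.60 (adjusted P 0.865). CD8.1 against B6 CD4 changed by 0.14, interval -0.19 to 0.48 (adjusted P 0.587), and without CD8.1 replicate 1 by 0.34 (adjusted P 0.0498). Leaving out other libraries took this change as low as -0.036, with an adjusted P of up to 0.917. CD8.2 against B6 CD8 changed by 0.029, interval -0.31 to 0.37 (adjusted P 0.940).

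Egr2 (ENSMUSG00000037868, chr10:67535475-67542188, plus strand), a factor tied to restraint of receptor signalling and to anergy, was at 19.3, 17.9 and 27.6 CPM in B6 CD4 and 11.8, 13.2 and 17.3 CPM in B6 CD8. CD8.1 had 25.2, 28.0 and 30.3 CPM and CD8.2 had 16.1, 22.7 and 19.7 CPM. Lineages were apart within each strain, but CD8.2 overlapped B6 CD4, so the order of means, 27.8 ± 2.57 CPM in CD8.1, 21.6 ± 5.25 in B6 CD4, 19.5 ± 3.29 in CD8.2 and 14.1 ± 2.85 in B6 CD8, had overlap at each step. The log2 changes by edgeR were 0.52 ± 0.17 in CD8.1 against CD8.2 (adjusted P 0.0333) and 0.62 ± 0.17 in B6 CD4 against B6 CD8 (adjusted P 0.0176), with an interaction of -0.098, interval -0.62 to 0.42 (adjusted P 0.899). Both calls could be lost with 1 library left out, though not always with a smaller change. That of CD8.1 against CD8.2 was lost without CD8.1 replicate 2 (log2 0.52, adjusted P 0.0783), CD8.1 replicate 3 (0.45, adjusted P 0.0971), CD8.2 replicate 1 (0.40, adjusted P 0.146) or CD8.2 replicate 3 (0.53, adjusted P 0.0834). That of B6 was lost without B6 CD4 replicate 3 (0.41, adjusted P 0.0976), B6 CD8 replicate 1 (0.51, adjusted P 0.0809) or B6 CD8 replicate 2 (0.57, adjusted P 0.0662). Egr2 in CD8Dual was higher than in B6 by 0.37, interval 0.0037 to 0.73, in the helper lineage (adjusted P 0.170, and 0.0329 without B6 CD4 replicate 3). It was higher by 0.46, interval 0.091 to 0.84, in the cytotoxic lineage (adjusted P 0.121). Over the other fits with all libraries these adjusted P ran from 0.0317 to 0.229 and from 0.00385 to 0.121, so both lay on either side of the threshold.

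Egr3 (ENSMUSG00000033730, chr14:70077203-70082614, plus strand), which acts together with Egr2, was at 23.6, 21.3 and 24.6 CPM in B6 CD4, 16.5, 17.4 and 19.2 in B6 CD8, 20.9, 36.6 and 36.99 in CD8.1 and 13.8, 16.8 and 15.2 in CD8.2. The lineages did not overlap, CD8.1 replicates 2 and 3 stood well above the rest, and CD8.1 replicate 1 was below all B6 CD4 libraries. Means were 31.5 ± 9.17 CPM in CD8.1, 23.2 ± 1.70 in B6 CD4, 17.7 ± 1.40 in B6 CD8 and 15.3 ± 1.54 in CD8.2, and of these neighbours only B6 CD4 and B6 CD8 did not overlap. By edgeR the log2 change was 1.05 ± 0.17 in CD8.1 against CD8.2 (adjusted P 0.000270). In B6 CD4 against B6 CD8 it was 0.39 ± 0.17 (adjusted P 0.119), not called although the groups did not overlap. In the B6 groups, libraries of the same number deviated together weakly (r 0.126 to 0.257, against -0.221 to 0.0999 for different numbers). Whether equal numbers share a pool is not stated. With the replicate block within each strain the B6 change was called (0.39, adjusted P 0.0362, within a range of 0.0125 to 0.141 over the fits with all libraries). Without a block it was also called with no filter on low counts (adjusted P 0.0125) and with only the groups compared (0.0142). The interaction by edgeR was 0.66, interval 0.15 to 1.17 (adjusted P 0.237). With all libraries it was called only when no filter on low counts was applied.

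Egr3 rested most on CD8.1 replicate 1. Without that library the interaction was 0.88 (adjusted P 0.00136), and CD8.1 against B6 CD4 moved from 0.44 ± 0.17 (adjusted P 0.0908) to 0.67 (adjusted P 0.000466). The B6 contrast, which holds no CD8.1 library, kept its log2 change of 0.39 and was called (adjusted P 0.00549). All groups share 1 estimate of spread. Calls over all tested genes also rose without that library, from 245 to 1378 for the interaction and from 1674 to 2975 in CD8.1 against B6 CD4. Leaving out any other library gave an interaction with an adjusted P of up to 0.487. With no filter on low counts the Egr3 interaction was also called (adjusted P 0.00705, against up to 0.299 in the other fits), as were the Egr2 and Egr3 changes of CD8.1 against B6 CD4 (adjusted P 0.0317 and 0.00362). In CD8.2 against B6 CD8, Egr3 changed by -0.22, interval -0.58 to 0.15 (adjusted P 0.481).

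Per kilobase of annotated exon, the genes spanned a wide range. In B6 CD4 the mean was 100.7 ± 5.73 CPM per kb for Cd5, 48.4 ± 0.397 for Cd6, 23.7 ± 3.45 for Egr1, 16.5 ± 5.46 for Nr4a1 and 12.5 ± 1.39 for Cd69 (SD, n = 3). Levels per kb in the same group were 6.35 ± 1.55 for Egr2, 5.26 ± 0.386 for Egr3, 4.41 ± 0.848 for Nr4a3 and 0.107 ± 0.0181 for Nr4a2. In CD8.2, Nr4a1 at 3.85 ± 0.843 CPM per kb was below Cd69 at 14.1 ± 1.54 and Egr2 at 5.73 ± 0.969, so its rank among the 9 changed with lineage. Spread between libraries also differed: the biological coefficient of variation was 7.41% for Cd6 and 8.46% for Cd5, 17.3% for Nr4a1 and 19.4% for Nr4a2, against a median of 10.7% over tested genes.

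Among the 9157 tested genes with a mean of at least 5 CPM, those whose log2 CPM followed Cd5 most closely over the 12 libraries were A530021J07Rik (Pearson r 0.986), Gsn (0.985), Pdlim4 (0.984), Amigo2 (0.984) and Sox4 (0.981). Gsn had means of 81.3 ± 6.73 CPM in B6 CD4, 77.8 ± 9.45 in CD8.1, 44.9 ± 3.04 in B6 CD8 and 42.3 ± 2.06 in CD8.2. Those nearest Nr4a1 were Zfp467 (0.989), Marcksl1 (0.986), Gata1 (0.986), Tesc (0.984) and Gm13546 (0.981). Tesc had 90.8 ± 14.0 CPM in B6 CD4, 82.6 ± 12.7 in CD8.1, 15.8 ± 1.79 in B6 CD8 and 17.8 ± 1.60 in CD8.2. The 12 points fall into groups split by lineage, so a coefficient mostly reads that split and is given as a description.

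Promoters were searched for short motifs that are known in immediate early genes. RefSeq promoters on GRCm38.p6, from 250 bases before to 50 after a gene's start, were matched for 5 of the 9 genes: Cd5, Nr4a1, Nr4a2, Nr4a3 and Egr2, the last with 5 starts. Cd6, Cd69, Egr1 and Egr3 were not matched. Motifs were sought on both strands in all 32851 promoters. The core of the cAMP response element, CGTCA, was in 20.8% of promoters, the full element TGACGTCA, which contains it, in 1.79%, and the CArG box in 1.63%. The Egr site GCGNGGGCG was in 5.55%, the Nr4a site AAAGGTCA in 1.51%, the AP-1 site TGANTCA in 7.81% and the TATA box TATAAA in 13.6%. The promoters of Nr4a1, Nr4a2 and Nr4a3 each held 4 matches to CGTCA, and 76 of the 32851 promoters (0.231%), those 3 included, held at least 4. Of the 5 Egr2 starts, 3 held 2 matches, a number that 5.01% of promoters reached, and these 3 and 1 other start held a CArG box. The windows of those 3 starts overlap and hold the same matches, so they count as 1 stretch. Nr4a1 and Nr4a2 each held 1 Egr site and Nr4a2 a TATA box, while Cd5, which also split by lineage, held none of the motifs. TGACGTCA, AAAGGTCA and TGANTCA had no match in these 9 windows.

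The stretches that carry these matches are shown for the 3 Nr4a genes and for the third Egr2 start, up to the RefSeq start or to the first base in the window that an annotated exon covers, 5′ to 3′ on the gene's strand. Those of Nr4a1 and Egr2 lie within their gene models, since both genes have further annotated exons upstream. They are chr15:101266596-101266845 (plus strand) for Nr4a1, chr2:57124004-57124253 (minus strand) for Nr4a2, chr4:48045055-48045152 (plus strand) for Nr4a3 and chr10:67537619-67537868 (plus strand) for Egr2. Capitals mark CGTCA or its complement TGACG, the Egr site of Nr4a1 and Nr4a2, the TATA box of Nr4a2 (read on the other strand) and the CArG box of Egr2. The Nr4a3 stretch shows 3 of its 4 matches, since the last lies past the start of an exon. Nr4a2 shares the CGTCA count of Nr4a1 and Nr4a3 but not their lineage difference. A match describes letters in the window and is no measure of binding.
Nr4a1: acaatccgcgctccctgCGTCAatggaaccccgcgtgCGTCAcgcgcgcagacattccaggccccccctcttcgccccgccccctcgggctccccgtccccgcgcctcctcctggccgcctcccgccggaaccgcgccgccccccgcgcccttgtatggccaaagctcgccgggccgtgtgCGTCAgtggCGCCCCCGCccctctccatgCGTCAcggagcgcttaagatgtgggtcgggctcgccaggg
Nr4a2: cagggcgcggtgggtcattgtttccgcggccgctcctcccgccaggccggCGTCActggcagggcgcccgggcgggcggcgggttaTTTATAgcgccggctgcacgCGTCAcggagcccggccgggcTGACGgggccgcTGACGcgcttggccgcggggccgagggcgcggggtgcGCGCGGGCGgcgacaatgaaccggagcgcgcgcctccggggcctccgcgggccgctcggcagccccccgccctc
Nr4a3: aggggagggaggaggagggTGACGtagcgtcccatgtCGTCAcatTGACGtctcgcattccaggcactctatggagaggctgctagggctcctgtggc
Egr2: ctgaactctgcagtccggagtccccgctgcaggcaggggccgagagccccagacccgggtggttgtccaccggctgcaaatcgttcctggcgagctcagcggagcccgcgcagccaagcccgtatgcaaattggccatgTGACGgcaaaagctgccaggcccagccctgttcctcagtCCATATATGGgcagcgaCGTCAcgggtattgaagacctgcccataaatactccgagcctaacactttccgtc

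Other genes of the same pathways were taken from fixed lists. The counts of each list that follows stand beside these shares over all tested genes. In CD8.1 against CD8.2, 28.7% were called, 14.9% higher and 13.8% lower. In B6 CD4 against B6 CD8, 23.1% were called, 11.4% higher and 11.7% lower. Of 11 partners and known targets of Egr factors, 7 were called higher and 1 lower in CD8.1 against CD8.2, and 5 higher and 1 lower in B6 CD4 against B6 CD8, with medians of 0.52 and 0.28 on the log2 scale. Fasl, the Fas ligand gene, had means of 7.56 ± 0.102 CPM in B6 CD4, 6.13 ± 1.46 in CD8.1, 1.79 ± 0.261 in B6 CD8 and 0.739 ± 0.309 in CD8.2. Its log2 changes were 3.13 ± 0.27 in CD8Dual (edgeR, adjusted P 4.99e-07) and 2.07 ± 0.24 in B6 (adjusted P 8.78e-06). Spry1, a feedback inhibitor of receptor signalling, rose by 1.96 ± 0.24 (adjusted P 1.99e-05) and 1.42 ± 0.26 (adjusted P 0.000752), and Ndrg1 by 1.16 ± 0.19 (adjusted P 0.000302) and 0.61 ± 0.19 (adjusted P 0.0291). Dgka, the most abundant of this list, changed by 0.046 ± 0.0805 (adjusted P 0.709) and 0.28 ± 0.0805 (adjusted P 0.0183). The B6 call of Ndrg1 was lost without B6 CD4 replicate 3 (adjusted P 0.135), B6 CD8 replicate 1 (0.118) or B6 CD8 replicate 2 (0.129), and that of Dgka without B6 CD4 replicate 1 (0.0766), B6 CD8 replicate 2 (0.0545) or B6 CD8 replicate 3 (0.0806). The Lag3 call in CD8.1 against CD8.2 was lost without CD8.1 replicate 3 (0.0526), CD8.2 replicate 1 (0.0639) or CD8.2 replicate 3 (0.101). For this list the count of calls in CD8.1 against CD8.2 fell from 8 to 5 without any of CD8.1 replicate 2, CD8.1 replicate 3 or CD8.2 replicate 2, and in B6 from 6 to 3 without B6 CD8 replicate 2.

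Of 17 other immediate early and receptor-induced genes, 16 were tested and Egr4 was not. In CD8.1 against CD8.2, 7 were called, all of them higher, and in B6 8 were higher and 1 lower, with median log2 changes of 0.42 and 0.35. So a part of the immediate early genes, and not all of them, followed the direction of Nr4a1 and Egr1. Dusp5, a phosphatase gene induced by receptor signals, had means of 34.6 ± 3.999 CPM in B6 CD4, 38.8 ± 2.06 in CD8.1, 15.2 ± 1.39 in B6 CD8 and 13.9 ± 1.15 in CD8.2, and log2 changes of 1.48 ± 0.11 (edgeR, adjusted P 5.09e-08) and 1.19 ± 0.11 (adjusted P 4.70e-07). Irf4 rose by 1.05 ± 0.16 (adjusted P 0.000143) and 1.66 ± 0.17 (adjusted P 2.04e-06). Nfkbid rose by 0.96 ± 0.15 (adjusted P 0.000263) and 0.82 ± 0.15 (adjusted P 0.000928), and Zfp36 by 0.70 ± 0.12 (adjusted P 0.000338) and 0.55 ± 0.12 (adjusted P 0.00252).

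Of 7 partners of CD5 and CD6, the ligand included, 1 was called higher and 1 lower in CD8.1 against CD8.2, and 2 in B6, both lower, which is near the shares of 28.7% and 23.1% over all tested genes, with medians of 0.10 and -0.050. The adaptor gene Grap2 was lower by log2 changes of -0.56 ± 0.090 (edgeR, adjusted P 0.000252) and -0.46 ± 0.090 (adjusted P 0.00114), and the phosphatase gene Ptpn6 by -0.26 ± 0.12 (adjusted P 0.127) and -0.59 ± 0.12 (adjusted P 0.00246). Alcam, the ligand of CD6, was at 1.86 ± 0.447 CPM in CD8.1 and 0.653 ± 0.0363 in CD8.2, a log2 change of 1.51 ± 0.32 (adjusted P 0.00226), and in B6 it changed by 0.94 ± 0.33 (adjusted P 0.0538). The Alcam change in B6 was called without B6 CD4 replicate 1 (adjusted P 0.0307) or CD8.1 replicate 3 (0.0486). Lcp2, the most abundant in the helper-lineage libraries (Grap2 in the others), changed by 0.23 ± 0.082 (adjusted P 0.0523) and 0.21 ± 0.082 (adjusted P 0.0900), and both changes were called without CD8.1 replicate 1 (0.000737 and 0.00995). The B6 change of Lcp2, a contrast that holds no CD8.1 library, stayed at 0.21 in that fit. The absence of CD8.1 replicate 1 raised the list's count in CD8.1 against CD8.2 from 2 to 5.

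Of 5 surface proteins linked to CD5 level, 3 were called higher and 1 lower in CD8.1 against CD8.2, and 3 higher and 2 lower in B6, with medians of 2.23 and 2.15. Izumo1r was at 204 ± 11.9 CPM in B6 CD4 and 350 ± 40.9 in CD8.1, against 40.4 ± 3.80 in B6 CD8 and 46.4 ± 6.44 in CD8.2, and changed by 2.92 ± 0.11 (edgeR, adjusted P 5.08e-11) and 2.34 ± 0.11 (adjusted P 3.47e-10). Cd200 rose by 2.23 ± 0.23 (adjusted P 3.72e-06) and 2.15 ± 0.23 (adjusted P 4.50e-06). Ly6c1 and Ly6c2 are near-identical neighbours, so reads may be assigned to either: Ly6c1 rose by 6.15 ± 0.22 (adjusted P 2.15e-11) and 6.18 ± 0.21 (adjusted P 5.56e-12), and Ly6c2 fell, at -4.61 ± 0.14 (adjusted P 5.76e-12) and -7.56 ± 0.17 (adjusted P 4.21e-14). Of S1pr1 and Klf2, which govern egress together with CD69, 1 was called higher in each contrast: S1pr1 changed by 0.46 ± 0.077 (adjusted P 0.000343) and 0.35 ± 0.077 (adjusted P 0.00339), while Cd69 itself did not pass.

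Marker lists give levels of genes known from other cell types and states, which in bulk RNA do not count cells, and the list of naive T cell markers was tested but is not reported. Regulatory T cell markers moved with the lineage contrast: of 10, 9 were tested, 9 were called higher in CD8.1 against CD8.2 and 8 in B6, and 8 were called higher in CD8.1 against B6 CD4, as were 6.94% of tested genes. Their summed level was 249.5, 286 and 364 CPM in B6 CD4 replicates 1, 2 and 3, 599, 689.7 and 644 CPM in CD8.1, 87.3, 89.2 and 90.4 CPM in B6 CD8 and 83.3, 83.5 and 81.6 CPM in CD8.2. Tnfrsf18 was the most abundant except in CD8.1, where Capg led in replicate 1 and Foxp3 in replicates 2 and 3. Il10 was at 0 in all B6 CD8 libraries and in CD8.2 replicates 2 and 3. Foxp3 was at 38.3 ± 6.00 CPM in B6 CD4, 139.7 ± 33.9 in CD8.1, 0.333 ± 0.178 in B6 CD8 and 1.24 ± 0.371 in CD8.2, and CD8.1 exceeded B6 CD4 by a log2 of 1.87 ± 0.17 (edgeR, adjusted P 1.18e-05). In CD8.2 against B6 CD8, 2 markers of this list were called higher and 1 lower, beside 3.29% and 4.66% of tested genes. Foxp3 was higher there by 1.96 ± 0.47 (edgeR, adjusted P 0.0190). The part of the regulatory T cell markers in the results was not tested.

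Of 9 memory or effector markers, 1 was called higher and 8 lower in CD8.1 against CD8.2, and all 9 lower in B6. In CD8.1 against B6 CD4 7 were called higher, beside 6.94% of tested genes, and in CD8.2 against B6 CD8 5 were lower, beside 4.66%. Their sum was 135, 153 and 172 CPM in B6 CD4, 389.6, 401 and 358 CPM in CD8.1, 1606, 1655 and 1779 CPM in B6 CD8 and 1059.7, 1154 and 1118 CPM in CD8.2. Il2rb led in B6 CD4 and CD8.1 and Nkg7 in the others, and none was at 0. Of 2 NKT cell markers, Klrb1c was tested and was called lower in both contrasts, and their sum ran from 0.182 to 2.50 CPM. Zbtb16 was at 0 in all 6 B6 libraries and in CD8.2 replicates 2 and 3. The Klrb1c call in CD8.1 against CD8.2 was lost without CD8.1 replicate 1 (adjusted P 0.0834), CD8.1 replicate 3 (0.115), CD8.2 replicate 1 (0.0736) or CD8.2 replicate 2 (0.112). A gate on low CD44, where it applied, would remove most memory and effector cells. Cd44 itself, the 1 marker called higher in CD8.1 against CD8.2, was at 72.0 ± 5.13 CPM in CD8.1 and 55.2 ± 5.32 in CD8.2. In B6 it was at 35.1 ± 2.16 CPM in B6 CD4 and 51.0 ± 9.36 in B6 CD8. The part of either list in the results was not tested.

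Of 7 B cell markers, 3 were called higher in CD8.1 against CD8.2 and 5 higher and 1 lower in B6, and Cd74 was the most abundant in every library. Their sum was 202, 202 and 247 CPM in B6 CD4, 414, 445 and 287 CPM in CD8.1, 160.5, 127 and 129 CPM in B6 CD8 and 278, 307 and 154 CPM in CD8.2, and none was at 0. The count of 3 fell to 1 without CD8.1 replicate 2 or CD8.2 replicate 3, and the B6 count of 6 fell to 2 without B6 CD8 replicate 2. Of 7 myeloid markers, 2 were called higher and 1 lower in CD8.1 against CD8.2, and 1 higher and 2 lower in B6. In CD8.1 against B6 CD4, 3 B cell and 4 myeloid markers were called higher, beside 6.94% of tested genes. In CD8.2 against B6 CD8, 3 B cell markers and 1 myeloid marker were higher, beside 3.29%, and 1 myeloid marker was lower, beside 4.66%. The Fcer1g call in CD8.1 against CD8.2 was lost without CD8.1 replicate 2 (adjusted P 0.157), CD8.1 replicate 3 (0.0633), CD8.2 replicate 1 (0.0757), CD8.2 replicate 2 (0.0770) or CD8.2 replicate 3 (0.0990). The sum of the myeloid markers was 4.50, 7.33 and 8.55 CPM in B6 CD4, 19.8, 15.8 and 16.7 in CD8.1, 9.01, 10.0 and 11.5 in B6 CD8 and 11.9, 22.9 and 10.2 in CD8.2. Lyz2 led except in B6 CD8 replicates 1 and 2, where Itgax did, and no marker was at 0. The sort on the T cell receptor would remove B and myeloid cells. The part of their RNA in the results was not tested.

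Heat shock and handling genes, which rise with stress during cell preparation, were listed because immediate early genes can rise with it too. Of 7, 4 were tested: 2 were called in CD8.1 against CD8.2, both lower, and 2 in B6, both lower, while 3 were higher in CD8.1 against B6 CD4 and 4 in CD8.2 against B6 CD8, as were 6.94% and 3.29% of tested genes. Their sum was 1759, 1716 and 1861 CPM in B6 CD4, 2305, 2534 and 2612 CPM in CD8.1, 2119, 2071 and 2498 CPM in B6 CD8 and 2953, 3021 and 2992 CPM in CD8.2, with Hspa8 the most abundant in every library. Hspa1a was at 0 in 3 libraries and Atf3 in 4. Hsph1 was lower by log2 changes of -0.69 ± 0.12 (edgeR, adjusted P 0.000418) in CD8Dual and -0.63 ± 0.12 (adjusted P 0.000867) in B6. The part of handling in the results was not tested.

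**Figure D3:**
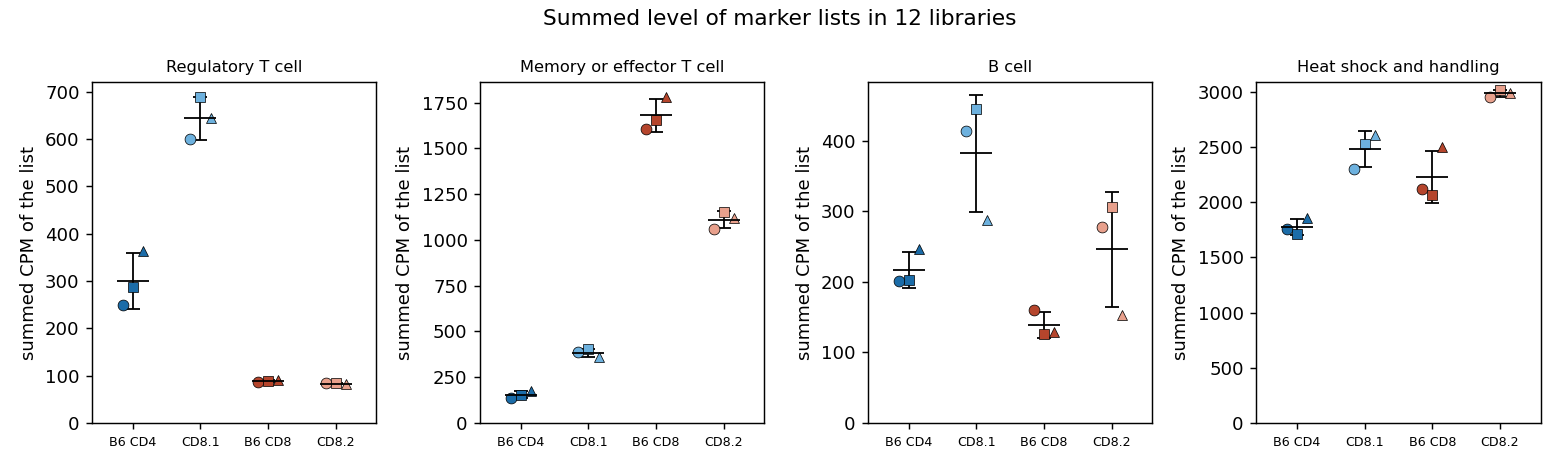
Summed level in CPM (y axis) of 4 marker lists in the 12 libraries by group (x axis); lines are the mean and SD of 3 libraries, and circles, squares and triangles are replicates 1, 2 and 3. Regulatory T cell markers are highest in CD8.1, at 599 to 689.7 CPM, memory or effector markers in B6 CD8, at 1606 to 1779 CPM, and heat shock genes in CD8.2, at 2953 to 3021 CPM.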

How the data were processed

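The authors deposited raw counts per gene for 12 libraries, made per their methods by aligning read pairs to mouse genome mm10 with STAR and counting with RSEM; versions and annotation release were not given. From these counts, edgeR 4.0.16 in R 4.3.3 fitted 1 model with a coefficient per group (TMM scaling, filterByExpr over the 4 groups, quasi-likelihood F test, Benjamini-Hochberg adjustment over 13118 genes). Alternatives were DESeq2 size factors, DESeq2 1.42.0, limma-voom (limma 3.58.1), no filter, a mean of at least 1 CPM, a fold over 5 with unadjusted P under 0.05, only the groups compared, replicate blocks, and leaving out each library. The scripts were tested on simulated data. Libraries of 1 number deviated together weakly in B6, so the block is given there, though a shared pool is not stated. Members and lists were chosen with earlier results of these data known. List genes named are at most the 4 with the smallest adjusted P, plus the most abundant. Gene models are from GENCODE M21, matched by identifier for 9 of 9 genes and 49326 of 49585 in all.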

Additional observations from a re-analysis of the deposited data

Results flagged for a closer look

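The difference between the lineage contrasts, CD8.1 against CD8.2 minus B6 CD4 against B6 CD8, was tested by edgeR for the 9 genes and the named genes of the lists, 58 in all, and passed an adjusted P of 0.05 in 11, each of them a list gene, against 1.87% of all tested genes. Most list genes were named for a small adjusted P in their list, so these shares are not comparable. In the Egr target Lag3 it was -1.24 on the log2 scale (adjusted P 0.0131), with means of 8.27 CPM in B6 CD4 and 9.51 in CD8.1, against 2.33 in B6 CD8 and 6.43 in CD8.2. In Ly6c2, a surface protein gene linked to CD5 level, it was 2.95 (adjusted P 3.93e-07). Among memory or effector markers it was 1.93 in Il2rb, 3.47 in Ccl5, 1.81 in Nkg7, 2.45 in Gzmm and 3.93 in Itgae. It was 2.87 in the regulatory T cell marker Gpr83, whose mean was 1.65 CPM in CD8.2 and 10.2 in B6 CD8. Over whole lists, genes not named included, the interaction was called in 7 of 9 memory or effector markers and 3 of 9 tested regulatory T cell markers. It was also called in 2 of 5 surface proteins linked to CD5 level, Ly6c2 and Nt5e (0.92, edgeR, adjusted P 0.0109). In the co-receptor genes it was -6.93 in Cd4, 7.31 in Cd8a and 2.70 in Cd8b1, and the Cd4 locus is altered by design in CD8Dual.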

How the results depend on the processing

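Over all alternatives with all libraries no change of the 9 genes reversed: 316 values kept their direction and side of the threshold, 14 came to pass it and 16 no longer did. The fold over 5 was applied to the reported fit, so it could not reverse a change. Among the refits the only call lost was that of Nr4a2 in B6 with no filter on low counts (edgeR, adjusted P 0.0712). The cause of these moves was not tested unless the fit itself gives it. Requiring a fold over 5 left 0 of the 9 genes called by edgeR in CD8.1 against CD8.2, 0 in B6 and 0 in CD8.2 against B6 CD8, since their folds are smaller. In CD8.1 against B6 CD4, DESeq2 called 1, beside 16.0% of tested genes, and no filter 2. In CD8.2 against B6 CD8, DESeq2 called 2, beside 11.2% of tested genes, no filter 3, a mean of at least 1 CPM 2, and only the groups compared 4. With no filter the interaction was called in 1. With the replicate block within each strain 7 were called in CD8.1 against CD8.2 and 8 in B6. Shares over all genes are not given for the settings other than DESeq2. Their counts therefore describe the fits and are no result about the 9 genes.

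Leaving out 1 library at a time, the genes called numbered 6 to 7 in CD8.1 against CD8.2, 5 to 8 in B6, 0 to 2 in CD8.1 against B6 CD4, 1 to 2 in CD8.2 against B6 CD8 and 0 to 2 for the interaction, the last 2 without CD8.1 replicate 1. Values that crossed 0 were log2 changes of Cd69 (-0.17 to 0.062), Nr4a2 (-0.018 to 0.36), Dgka (-0.013 to 0.12) and Lyz2 (-0.0097 to 0.75) in CD8.1 against CD8.2. In CD8.1 against B6 CD4 they were Nr4a1 (-0.051 to 0.40), Nr4a3 (-0.24 to 0.0071) and Egr1 (-0.036 to 0.34). In CD8.2 against B6 CD8 they were Nr4a1 (-0.12 to 0.16), Nr4a3 (-0.16 to 0.0055) and Egr1 (-0.036 to 0.11). For the interaction they were Nr4a1 (-0.096 to 0.36), Nr4a3 (-0.16 to 0.093), Egr1 (-0.065 to 0.31) and Egr2 (-0.27 to 0.10).

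Counts over all genes moved more. They were 3771, 3030, 1674, 1042 and 245 in the 5 comparisons in the order above, and ran over 2584 to 4967, 2424 to 3722, 769 to 2975, 437 to 1932 and 167 to 1378 with 1 library left out. The highest of the last 3 came without CD8.1 replicate 1. Libraries of the same number deviated together weakly across B6 groups (r 0.126 to 0.257 over genes, which are not independent) and less so across CD8.1 and CD8.2 (-0.0039 to 0.119). For different numbers across B6 groups r ran from -0.221 to 0.0999. With 3 libraries a group and down to 8 counts, changes of Nr4a2 were the least precise.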
